A study of Mus musculus with 12 samples.

Results

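Bidirectional protein-coding promoters were taken here as accessible chromatin peaks that lay within 1000 bp of the transcription start sites (TSSs) of at least 2 protein-coding genes on opposite strands, by the GENCODE M21 annotation of GRCm38. By this rule 1829 of 91354 peaks (2.0%) were bidirectional promoter peaks, and they covered 1222 gene pairs and 2465 genes. A further 21155 peaks lay within the same distance of protein-coding TSSs without a partner on the other strand, and 68370 lay farther away. At a bidirectional promoter, 2 genes are transcribed away from each other from neighbouring start sites, so that a single nucleosome-depleted region serves both. Such promoters are common in mammalian genomes, are usually CpG-rich and TATA-poor, and many serve housekeeping genes for DNA repair, chromatin, mitochondria and RNA processing. Accessibility measured there is a property of the shared region and cannot be assigned to 1 gene of the pair.

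The peaks were measured by Omni-ATAC-seq, a method that marks open DNA by cutting it with a transposase that carries adapters, in embryonic stem cells (mESCs) and embryonic fibroblasts (MEFs) of the mouse, all of a C57/Bl6 background and without a genetic modification or treatment named in the labels. MEFs were sorted from fibroblast cultures as THY1+ cells, and mESCs as THY1-/SSEA1+/EPCAM+ cells, from 3 biological replicates of each cell type. Each of the 6 libraries (MEF 1, 2 and 4, mESC 1, 3 and 5) was sequenced on a BGI DNBSEQ-G400, which reads DNA nanoballs, and on an Illumina HiSeqX10, which gave 12 samples in 4 groups of 3. The questions were which bidirectional promoters differed between mESCs and MEFs, and whether a promoter gave the same read count on both platforms. P-values of the cell type tests below measure the spread between these libraries. The platform tests compare 2 readings of the same libraries. Without the library in the fit, they treat the readings as separate samples. With it, they measure the spread of the platform difference between libraries.

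The samples held between 15860985 and 21831840 reads in peaks, and the median bidirectional promoter peak held between 341 and 584 reads in a sample. The labelled cell types were checked on marker genes: promoter peaks of 7 of 7 mESC markers, Pou5f1 and Nanog among them, were higher in mESCs on both platforms, and those of 8 of 8 MEF markers, such as Col1a2 and Thy1, were lower. Of the markers of other cell types, 3 of 4 endothelial genes had a promoter peak, and the most accessible one of each was not called on both platforms, though another peak of Pecam1 was (given below), 1 of 4 blood genes had one (Cd79a, higher in mESCs), and no keratinocyte gene of 3 had one. Of 3 trophoblast genes 2 had one and 1 was higher in mESCs, and of 3 primitive endoderm genes 3 had one, with 2 higher and 1 lower.

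To show what these regions look like, the reference sequence of GRCm38 is given for 9 of them, as 300 bases about the peak centre on the plus strand. They are the 3 peaks with the largest difference in each direction between the cell types, the 2 most accessible ones and the accessible one that differed least. Capitals mark every match, on either strand, to the core letters of 10 promoter motifs: NRF1 (GCGCATGCG), ETS factors (CCGGAAGT), YY1 (AAGATGGCG), the CCAAT box (CCAAT), the GC box (GGGCGGG), the TATA box (TATAAA), the cAMP response element (TGACGTCA), the E-box (CACGTG), ZNF143 (ACTACAATT) and AP-1 (TGACTCA). 
8030474K03Rik/Gm4779 (higher in mESCs, chrX:101794382-101794681): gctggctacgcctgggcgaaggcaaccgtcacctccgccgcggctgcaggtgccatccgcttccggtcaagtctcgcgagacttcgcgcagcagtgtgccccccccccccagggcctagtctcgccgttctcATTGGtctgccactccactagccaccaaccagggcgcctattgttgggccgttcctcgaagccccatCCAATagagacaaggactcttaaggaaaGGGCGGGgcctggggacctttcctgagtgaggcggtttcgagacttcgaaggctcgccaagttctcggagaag
Kcnu1/Ash2l (higher in mESCs, chr8:25848317-25848616): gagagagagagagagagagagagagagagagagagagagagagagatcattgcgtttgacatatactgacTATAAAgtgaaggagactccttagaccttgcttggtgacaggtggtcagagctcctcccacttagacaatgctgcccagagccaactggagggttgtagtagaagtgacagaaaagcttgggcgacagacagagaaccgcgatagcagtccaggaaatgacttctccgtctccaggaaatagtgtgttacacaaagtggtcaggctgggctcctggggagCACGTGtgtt
Hist1h2aa/Hist1h2ba (higher in mESCs, chr13:23934174-23934473): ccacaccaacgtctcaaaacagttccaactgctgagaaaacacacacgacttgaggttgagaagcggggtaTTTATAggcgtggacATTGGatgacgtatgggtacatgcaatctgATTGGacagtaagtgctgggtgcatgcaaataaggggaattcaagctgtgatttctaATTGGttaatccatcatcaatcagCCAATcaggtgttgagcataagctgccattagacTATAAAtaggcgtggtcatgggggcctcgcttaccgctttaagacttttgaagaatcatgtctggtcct
Tmem176a/Tmem176b (higher in MEFs, chr6:48840973-48841272): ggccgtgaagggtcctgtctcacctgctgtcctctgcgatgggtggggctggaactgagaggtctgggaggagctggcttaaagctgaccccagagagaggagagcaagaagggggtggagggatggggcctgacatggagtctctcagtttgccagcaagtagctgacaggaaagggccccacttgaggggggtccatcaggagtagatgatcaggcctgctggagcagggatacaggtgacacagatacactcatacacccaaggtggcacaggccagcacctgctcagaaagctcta
Tmem80/Deaf1 (higher in MEFs, chr7:141327566-141327865): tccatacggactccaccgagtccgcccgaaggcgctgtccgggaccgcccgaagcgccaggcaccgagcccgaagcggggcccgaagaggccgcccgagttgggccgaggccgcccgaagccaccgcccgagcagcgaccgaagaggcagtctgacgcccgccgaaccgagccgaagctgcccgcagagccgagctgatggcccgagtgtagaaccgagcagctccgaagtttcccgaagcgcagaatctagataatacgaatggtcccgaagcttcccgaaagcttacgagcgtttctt
Zc2hc1c/Acyp1 (higher in MEFs, chr12:85289356-85289655): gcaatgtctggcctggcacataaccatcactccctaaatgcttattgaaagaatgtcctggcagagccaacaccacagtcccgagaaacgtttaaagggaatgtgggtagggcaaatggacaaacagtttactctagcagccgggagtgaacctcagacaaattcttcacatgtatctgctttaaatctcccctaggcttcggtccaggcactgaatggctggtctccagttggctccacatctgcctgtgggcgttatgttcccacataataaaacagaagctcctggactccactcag
Fam72a/Srgap2 (most accessible, chr1:131527481-131527780): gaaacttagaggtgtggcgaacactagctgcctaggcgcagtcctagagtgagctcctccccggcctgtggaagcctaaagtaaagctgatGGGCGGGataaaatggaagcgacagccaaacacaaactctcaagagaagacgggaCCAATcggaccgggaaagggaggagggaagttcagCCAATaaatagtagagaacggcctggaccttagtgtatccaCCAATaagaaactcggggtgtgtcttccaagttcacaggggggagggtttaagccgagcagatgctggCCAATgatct
Kctd9/Cdca2 (most accessible, chr14:67715815-67716114): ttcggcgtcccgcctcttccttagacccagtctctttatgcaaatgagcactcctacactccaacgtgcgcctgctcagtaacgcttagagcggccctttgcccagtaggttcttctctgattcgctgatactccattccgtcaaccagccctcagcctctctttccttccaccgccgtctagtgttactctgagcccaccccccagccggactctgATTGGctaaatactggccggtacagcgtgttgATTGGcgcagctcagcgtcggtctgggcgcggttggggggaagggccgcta
Cep290/Tmtc3 (least different, chr10:100487339-100487638): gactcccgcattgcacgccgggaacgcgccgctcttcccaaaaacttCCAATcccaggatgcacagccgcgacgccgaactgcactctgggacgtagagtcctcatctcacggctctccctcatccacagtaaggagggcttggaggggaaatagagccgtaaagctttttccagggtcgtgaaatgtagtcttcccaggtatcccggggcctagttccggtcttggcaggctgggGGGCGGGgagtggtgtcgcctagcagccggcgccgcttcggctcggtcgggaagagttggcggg

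The 300-base windows varied in base composition. The Tmem80/Deaf1 window had 66.3% GC and 39 CpG dinucleotides. The Hist1h2aa/Hist1h2ba window had 45% GC and 8 CpGs, with 4 CCAAT boxes between a TATA box facing either gene. The Tmem176a/Tmem176b window had 58.7% GC but 2 CpGs, and the Zc2hc1c/Acyp1 window 49.0% GC and 5 CpGs. In Fam72a/Srgap2 there were 4 CCAAT boxes, all on the plus strand, and 1 GC box, while the Cep290/Tmtc3 window held 1 of each. Both TSSs of the pair lay inside the printed window in 8030474K03Rik/Gm4779, Kctd9/Cdca2 and Cep290/Tmtc3.

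Over all bidirectional promoter peaks, core letters of 3 motifs known from such promoters stood in a larger share of windows than at other protein-coding promoters of the same 300-base width. The ETS letters stood in 9.79% of bidirectional, 4.19% of other promoter and 1.76% of all windows. For YY1 the shares were 3.83%, 1.79% and 0.870%, and for NRF1 3.28%, 1.80% and 0.639%. ZNF143 letters stood in 0.765%, 0.388% and 0.183%, and the cAMP response element in 3.06%, 2.13% and 0.972%. The GC box (42.2%, 39.7% and 16.4%), the CCAAT box (37.5%, 32.5% and 32.45%) and the E-box (8.91%, 8.20% and 5.79%) stood in similar shares of both kinds of promoter. The TATA box (3.44%, 4.41% and 9.05%) and AP-1 (3.23%, 6.15% and 17.4%) stood in smaller shares of bidirectional promoters. These are counts of letters, given without a test, and the E-box and CRE letters read the same on both strands.

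Of the 1222 pairs, 977 were divergent, with start sites pointing away from each other, and the others overlapped head to head. The start sites of divergent pairs lay a median of 120 bp apart (quartiles 65 and 245 bp), and those of overlapping pairs 200 bp. All peaks are 502 bp wide, so read counts can be compared between them without a length correction. A single peak stood at 690 pairs, 2 peaks at 457 and 3 at 75. Of the 1829 peaks 763 (41.7%) held both start sites, 417 (22.8%) held 1 and 649 (35.5%) held none. The peak centre fell between protein-coding genes in 419 peaks, in an exon in 928 and in an intron in 482, and 47 peaks lay near 3 or more genes.

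Bidirectional promoters were among the more accessible peaks of these cells. Their median level was 24.7 CPM (reads per 1000000 reads in peaks of a sample; quartiles 13.4 and 41.0, range 2.39 to 171), against 14.9 at other protein-coding promoters and 5.67 at peaks farther away. Their median GC content was 61.6% (60.6% at other promoters and 49.0% farther away), and their CpG observed-to-expected ratio was 0.772 (0.684 and 0.234). A summit had been called in all 12 samples at 1510 of them (82.6%) against 77.1% of other promoter peaks, with a median fold enrichment over background between 28.5 and 37.8 in a sample against 17.8 to 23.3. On the lists of reproducible BGI peaks, 1360 (74.4%) were listed for both cell types, 252 for MEFs only and 217 for mESCs only. For other promoters 63.1% were on both lists, and for peaks farther away 19.6%.

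The 1829 peaks, 2.0% of all, took 5.59% ± 0.131 (SD, n = 3) of the peak reads in MEFs on BGI and 5.97% ± 0.124 on Illumina, and 5.11% ± 0.240 and 5.41% ± 0.225 in mESCs. On either platform the 3 MEF samples lay above the 3 mESC samples, at the smallest p that 3 against 3 allows (two-sided exact permutation test, p = 0.1). The share was lower on BGI in 6 of 6 libraries, with BGI minus Illumina between -0.401 and -0.283 percentage points (mean -0.341, two-sided exact sign-flip permutation test, p = 0.0312, the smallest it can give).

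More bidirectional promoters were less accessible in mESCs than were more accessible. In the BGI samples 1109 of 1829 differed between mESCs and MEFs (60.6%, against 84.1% of all peaks): 274 were higher in mESCs (all peaks 40.9%) and 835 lower (43.2%), by edgeR's quasi-likelihood test at a Benjamini-Hochberg adjusted p under 0.05. In the Illumina samples 1164 differed (63.6%, against 84.6%), 277 of them higher (all peaks 41.2%) and 887 lower (43.4%). At other protein-coding promoters 69.1% and 71.6% differed. The same direction was called on both platforms for 241 peaks higher in mESCs (13.2%, against 40.0% of all peaks) and 778 lower (42.5%, against 41.7%), and none was called in opposite directions. A further 90 were called on BGI alone, 145 on Illumina alone and 575 on neither. Both contrasts use the same 6 libraries, so the platforms are repeated readings and not independent replicates.

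Most differences at bidirectional promoters were small. Over all 1829 peaks, called or not, the median absolute log2 difference was 0.34 (BGI) and 0.33 (Illumina). It was 0.51 and 0.50 at other promoters and 1.74 and 1.73 over all peaks. Only 173 bidirectional promoter peaks were called on both platforms with a mean change of at least 2-fold, where 62.9% of all peaks were. The 6 mESC and the 6 MEF samples did not overlap in CPM at 704 peaks (38.5%, against 76.5% of all peaks), 231 of them higher and 473 lower. The signed median was -0.20 in the BGI samples and -0.21 in the Illumina samples, against -0.16 and -0.17 at other promoters and -0.08 and -0.07 over all peaks.

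The balance of higher and lower calls depended on the scaling. With library sizes fixed at the depths to which the reads had been down-sampled, 372 were higher and 519 lower on BGI (all peaks 43.5% and 38.8%), and 360 and 593 on Illumina (all peaks 43.5% and 39.5%), so that 41.8% and 37.8% of calls were higher in place of 24.7% and 23.8%. This scaling raised the median of all peaks to 0.06 and 0.05 and that of bidirectional promoters to -0.06 and -0.09. A scaling shifts all peaks alike, so the distance between these medians, 0.12 on BGI and 0.14 on Illumina, does not depend on it.

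**Figure D1:**
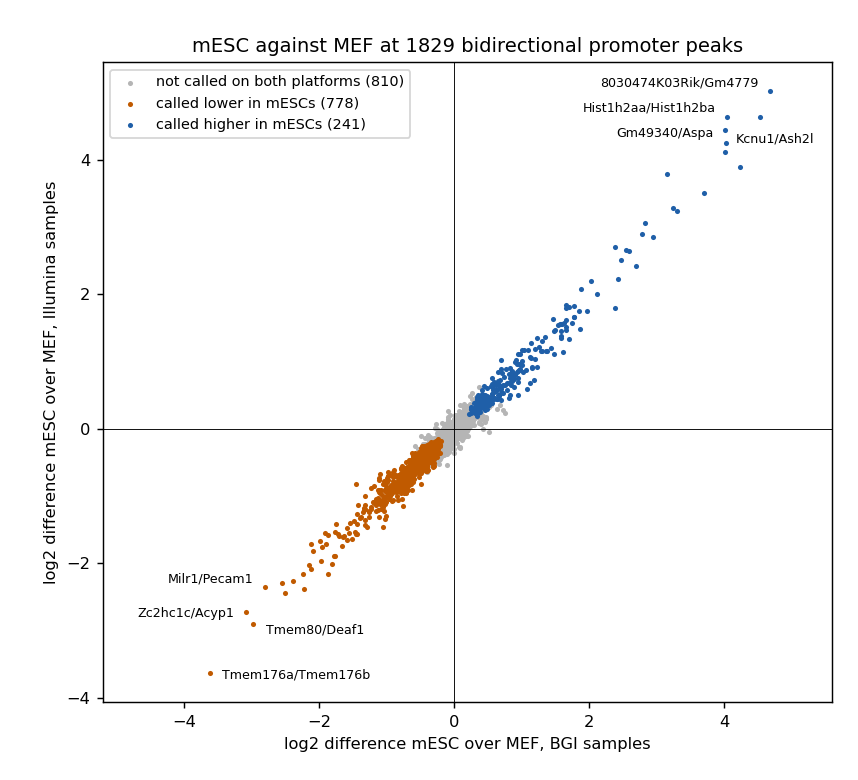
Log2 difference of mESCs over MEFs in the BGI samples (horizontal axis) and the Illumina samples (vertical axis) at each of the 1829 bidirectional promoter peaks, with calls made on both platforms in colour and 8 pairs named. The cloud is narrow, with 778 peaks called lower and 241 higher, and the largest differences are at pairs higher in mESCs.

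The pair with the largest difference higher in mESCs stood between 8030474K03Rik (ENSMUSG00000046774.17) and Gm4779 (ENSMUSG00000045010.14), at chrX:101794282-101794783, where the start sites are 233 bp apart. It read 0.277, 0.746 and 0.697 CPM in MEFs on BGI and 0.366, 0.732 and 0.339 on Illumina. In mESCs it read 15.8, 19.22 and 10.9 CPM on BGI and 16.8, 18.4 and 13.2 on Illumina. Every mESC sample was thus far above every MEF sample, with log2 differences of 4.68 (SE 0.31, edgeR adjusted p = 2.33e-10) and 5.01 (SE 0.27, adjusted p = 1.48e-11).

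Kcnu1, a potassium channel of sperm, and Ash2l, a core subunit of histone H3 lysine 4 methyltransferases, start 1929 bp apart, and the peak at chr8:25848217-25848718 lay between them. The MEF samples read 0.185, 0.249 and 0.299 CPM on BGI and 0.366, 0 and 0.339 on Illumina, the 0 being the only sample in which any bidirectional promoter peak had no read. The mESC samples read 5.93, 6.15 and 6.09 CPM on BGI and 5.76, 6.20 and 6.83 on Illumina, a log2 difference of 4.54 (SE 0.36, edgeR adjusted p = 2.15e-09) and 4.63 (SE 0.45, adjusted p = 2.73e-08). The samples of a cell type lay close together and the cell types did not overlap.

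Hist1h2aa and Hist1h2ba, testis variants of histones H2A and H2B, share a divergent promoter at chr13:23934074-23934575 with start sites 306 bp apart. It read 0.785, 0.596 and 0.299 CPM in MEFs on BGI, 0.275, 0.244 and 0.533 on Illumina, and 11.5, 9.87 and 8.01 in mESCs on BGI and 11.4, 9.30 and 6.70 on Illumina. The log2 differences were 4.04 (SE 0.31, edgeR adjusted p = 1.58e-09) and 4.63 (SE 0.34, adjusted p = 6.70e-10), and no MEF sample came near an mESC sample.

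The other 5 named pairs higher in mESCs also did not overlap between the cell types. The Gm49340/Aspa promoter (chr11:73329394-73329895), which it shares with Spata22, a gene of meiotic recombination, rose from 0.440 ± 0.308 to 7.45 ± 1.62 CPM on BGI (SD, n = 3). Aspa codes for aspartoacylase. The promoter of Terb2, which tethers meiotic telomeres, and Patl2, an oocyte mRNA regulator (chr2:122186048-122186549, an exon of Terb2), rose from 0.480 ± 0.186 to 9.64 ± 2.41 CPM. At Dmrtc2, a DM-domain factor of male meiosis, and Lypd4, a sperm membrane protein (chr7:24869781-24870282), MEFs had 1.40 ± 0.622 and mESCs 13.0 ± 2.12 CPM. These 3 peaks are on the divergent promoter itself, with centres 24.5, 67.5 and 32.0 bp from the midpoint of the start sites.

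A further 2 peaks lay to the side of their promoter. The Lrriq4/Lrrc34 peak (chr3:30646719-30647220, in introns) rose from 0.889 ± 0.200 to 15.3 ± 1.95 CPM on BGI, and its centre was 908.5 bp from the midpoint. The Zfp524/Fiz1 peak (chr7:5013049-5013550, an exon of the zinc finger gene Fiz1) rose from 1.40 ± 0.306 to 19.08 ± 0.801 CPM at 1043 bp from the midpoint. The 8 pairs had log2 differences between 3.15 and 4.68 on BGI and between 3.50 and 5.01 on Illumina, and each was listed as an mESC peak and not as a MEF peak.

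Of the pairs higher in MEFs, the strongest was Tmem176a and Tmem176b, which code for related 4-pass membrane proteins (ENSMUSG00000023367.14 and ENSMUSG00000029810.15, chr6:48840873-48841374, an exon of Tmem176b). MEFs read 16.0, 16.7 and 23.1 CPM on BGI and 16.9, 16.0 and 21.4 on Illumina. In mESCs it read 1.07, 1.60 and 2.05 CPM on BGI and 0.743, 1.58 and 2.21 on Illumina. The cell types did not overlap, with log2 differences of -3.62 (SE 0.23, edgeR adjusted p = 1.11e-10) and -3.63 (SE 0.25, adjusted p = 2.44e-10).

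Tmem80/Deaf1 (chr7:141327466-141327967) was the only one of these 16 pairs with a high level, and it lay between the start sites of a transmembrane protein gene and of the transcription factor gene Deaf1. MEFs read 93.3, 107.6 and 101.3 CPM on BGI and 97.6, 119 and 111 on Illumina, against 17.3, 12.2 and 10.6 and 20.2, 12.9 and 12.3 in mESCs. A summit was called in all 12 samples, mESCs included, though the peak was on the reproducible BGI list of MEFs and not on that of mESCs. The log2 differences were -2.98 (SE 0.14, edgeR adjusted p = 2.74e-12) and -2.90 (SE 0.14, adjusted p = 3.01e-12).

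Zc2hc1c/Acyp1 (chr12:85289256-85289757, an intron of Zc2hc1c) is the third of this group, and Acyp1 codes for an acylphosphatase. The peak lay to the side of the promoter, with its centre 991.5 bp from the midpoint of the start sites. It read 14.7, 13.3 and 19.3 CPM in MEFs on BGI and 13.6, 16.2 and 18.7 on Illumina, against 2.77, 1.12 and 1.93 and 2.29, 2.28 and 3.08 in mESCs. The log2 differences were -3.09 (SE 0.25, edgeR adjusted p = 2.61e-09) and -2.72 (SE 0.19, adjusted p = 3.40e-10), without overlap.

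The other 5 pairs higher in MEFs included genes of the cell surface, of collagen folding and of cilia. Milr1, an inhibitory receptor of mast cells, and Pecam1, an adhesion molecule of endothelium, share a peak (chr11:106751010-106751511) that read 5.90 ± 1.35 CPM in MEFs and 0.883 ± 0.152 in mESCs on BGI. The most accessible promoter peak of Pecam1, by contrast, was not called (-0.28 with an edgeR adjusted p = 0.148 in the BGI samples, 0.03 in the Illumina samples), nor were those of Tek and Kdr, and Cdh5 had none. The MEFs were sorted as THY1+, and the part of endothelial cells in this peak was not tested. Cspg4, the NG2 proteoglycan of pericytes and fibroblasts, and Odf3l1 (chr9:56864087-56864588) had 7.92 ± 2.30 against 1.41 ± 0.163 CPM.

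Fkbp10, a prolyl isomerase for collagen in the endoplasmic reticulum, and P3h4, a collagen modification factor (chr11:100415432-100415933), had 32.3 ± 1.03 CPM in MEFs and 6.48 ± 0.448 in mESCs on BGI. Bbs12, a ciliary chaperonin-like protein, and Cetn4, a centrin (chr3:37313288-37313789, an intron of Bbs12), had 27.3 ± 3.69 and 6.13 ± 1.63 CPM. Neu2, a sialidase, and Ngef, a guanine nucleotide exchange factor (chr1:87574732-87575233, an intron of Neu2), had 6.78 ± 0.783 and 1.24 ± 0.243 CPM. Over the 8 pairs the log2 differences ran between -3.62 and -2.23 on BGI and between -3.63 and -2.26 on Illumina.

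**Figure D2:**
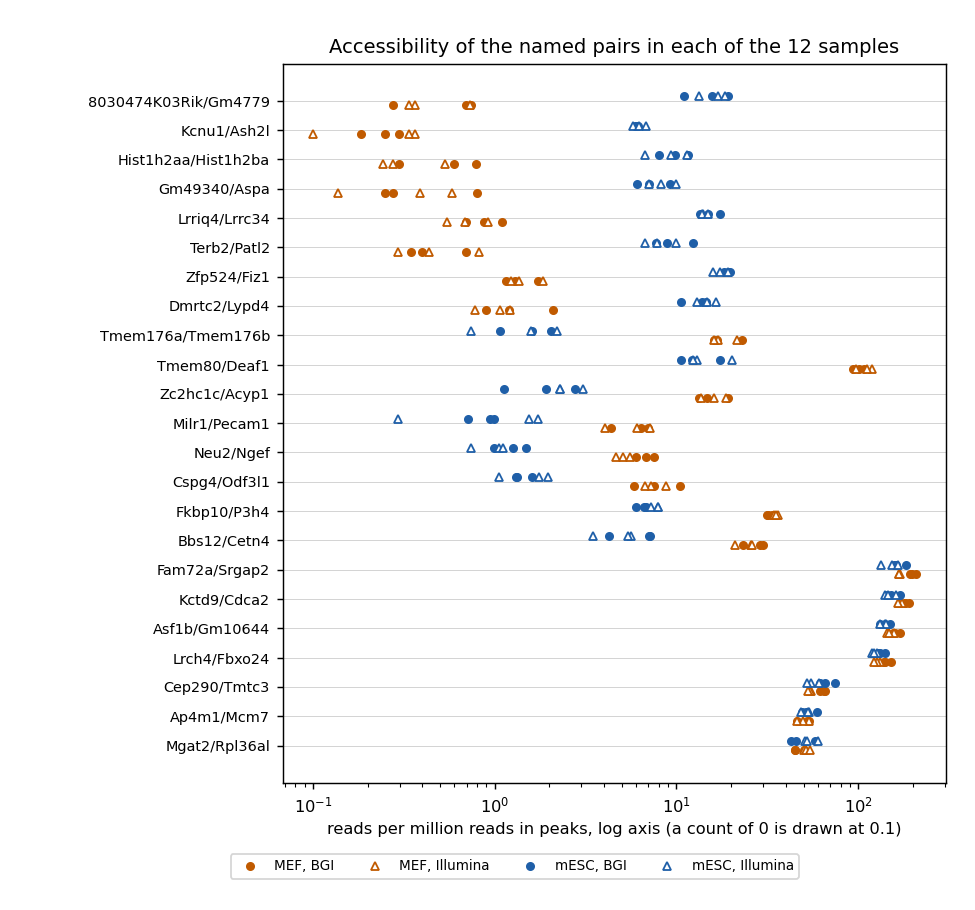
CPM (log axis) in each of the 12 samples at the 8 pairs highest in mESCs, the 8 highest in MEFs, the 4 most accessible and the 3 least different, with MEFs in orange, mESCs in blue, BGI as filled circles and Illumina as open triangles. By the rule that picked them, no mESC sample overlaps a MEF sample in the first 16 pairs. In the last 3, picked for the smallest differences, the cell types lie on top of each other.

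The most accessible bidirectional promoters were shared by both cell types. Fam72a/Srgap2 (chr1:131527381-131527882), with Srgap2 a GTPase-activating protein, had a mean of 171 CPM, with 192, 207 and 196 in MEFs on BGI and 162, 183 and 158 in mESCs. Kctd9/Cdca2 (chr14:67715715-67716216), with Cdca2 a mitotic phosphatase subunit, had 164 CPM, and Asf1b/Gm10644 (chr8:83955254-83955755), with Asf1b a histone chaperone of S phase, 147 CPM. Lrch4/Fbxo24 (chr5:137628526-137629027) had 131 CPM. The first 3 were lower in mESCs on both platforms, by log2 differences between -0.18 and -0.31 (edgeR adjusted p between 0.00193 and 0.0212), and Lrch4/Fbxo24 only on BGI (-0.18, adjusted p = 0.0453, against -0.10, adjusted p = 0.184, on Illumina). With fixed library sizes none of these 4 passed.

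Among the bidirectional promoters with the highest levels (upper quartile), those that differed least were Cep290/Tmtc3, Ap4m1/Mcm7 and Mgat2/Rpl36al. Cep290, a protein of the ciliary transition zone, and Tmtc3, an O-mannosyltransferase (chr10:100487239-100487740), had 61.2, 66.0 and 65.1 CPM in MEFs and 61.9, 74.6 and 65.5 in mESCs on BGI. The log2 difference was 0.01 (SE 0.09) on BGI and 0.00 (SE 0.08) on Illumina. Mcm7, part of the replicative helicase, and Ap4m1, of an adaptor complex (chr5:138171003-138171504), had 50.6 ± 4.04 and 53.4 ± 5.62 CPM on BGI. Mgat2, an enzyme of N-glycan synthesis, and Rpl36al, a ribosomal protein paralog (chr12:69183874-69184375), had 46.7 ± 3.20 and 48.6 ± 7.98 CPM.

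The median difference between the cell types rose with the distance of a peak from the middle of the promoter, while the share of peaks listed for both cell types was lower far from it. In the 659 peaks with a centre within 100 bp of the midpoint of the start sites, the median level was 33.5 CPM, the median absolute log2 difference 0.26 and the share called with at least 2-fold 3.49%. These values were 31.4 CPM, 0.31 and 7.40% beyond that up to 250 bp (311 peaks), 22.6 CPM, 0.37 and 9.04% up to 500 bp (343 peaks), and 13.6 CPM, 0.39 and 13.6% up to 750 bp (309 peaks). From there up to 1000 bp (148 peaks) they were 11.2 CPM, 0.52 and 22.3%, and beyond that (59 peaks) 8.73 CPM, 0.81 and 35.6%. The median GC content fell from 63.3% to 53.0% over the same bins. The share of peaks on both BGI lists was 92.4%, 81.7%, 70.6%, 48.2%, 52.7% and 47.5% in turn. A weak peak can be in the set because 1 cell type alone passed the limit for listing: 3.24% of peaks on both lists were called with at least 2-fold, against 25.8% of those on the MEF list only and 29.5% of those on the mESC list only.

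**Figure D3:**
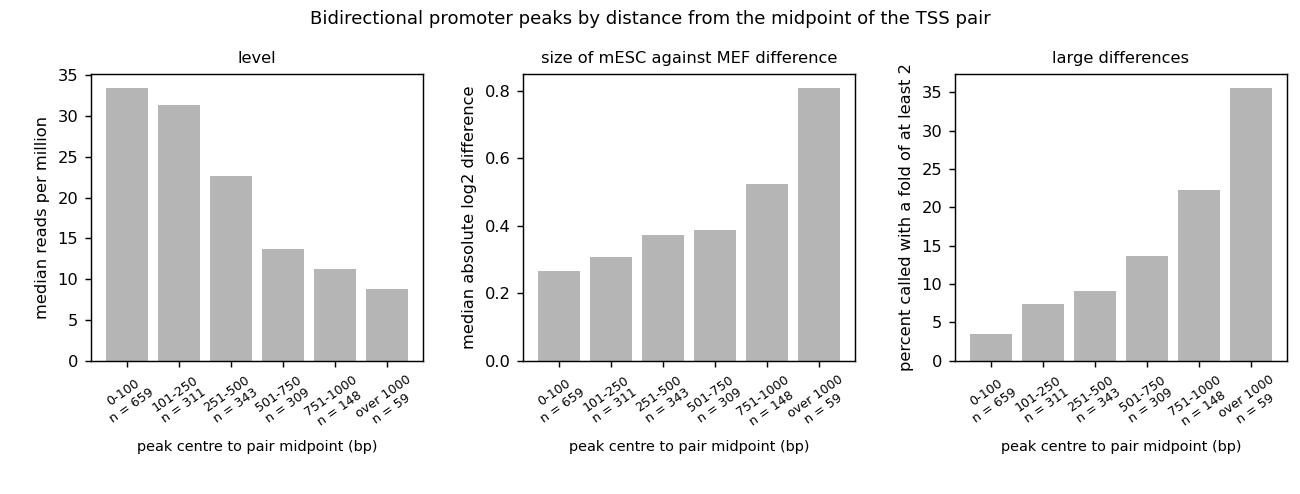
Median CPM (left), median absolute log2 difference of mESCs against MEFs (middle) and percent of peaks called on both platforms with a mean fold of at least 2 (right), for the 1829 peaks in 6 bins of the distance from peak centre to the midpoint of the start sites. From the first bin to the last the level falls from 33.5 to 8.73 while the difference rises from 0.26 to 0.81.

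Split at 250 bp, the 970 inner peaks had a median absolute log2 difference of 0.27 and 46 with at least 2-fold (4.74%), and the 859 outer peaks 0.41 and 127 (14.8%). Of the inner peaks 110 were higher in mESCs and 397 lower, and of the outer peaks 131 and 381. The limit of 250 bp was chosen after the data were seen, and level, GC content and listing change with the distance, and their part in the larger outer differences was not tested. The ratio of the outer to the inner median stayed between 1.46 and 1.63 when 1 library was left out. Start sites over 1000 bp apart, as at Kcnu1/Ash2l, occur at 51 divergent peaks, where the midpoint lies far from either gene. The orientation of the pair went with small differences in these shares: 12.4% of 1470 divergent peaks were higher and 43.1% lower, against 16.2% and 40.4% of 359 overlapping ones.

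Neighbouring peaks of a pair could be compared at 527 pairs that had at least 2 peaks within 3000 bp. The peak nearest the midpoint and an outer peak were called in the same direction at 166 pairs (31.5%) and in opposite directions at 29 (5.50%). Only an outer peak was called at 139 pairs (26.4%), only the nearest at 100 (19.0%) and none at 93 (17.6%). Taken singly, 40.0% of all peaks were called higher and 41.7% lower on both platforms. The like shares for neighbouring peaks at other promoters are not given here, so these have no background. At Cfap97d1/Dusp3, 1 of the 29, the nearest peak (chr11:101984041-101984542) was lower in mESCs, with a mean log2 difference of -1.19. Its outer peak (chr11:101982799-101983300) was higher at 1.58. Dusp3 is a dual-specificity phosphatase.

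At Sdf4/B3galt6, with Sdf4 a calcium-binding protein of the Golgi and B3galt6 a linker enzyme of proteoglycan synthesis, the nearest peak was lower (-0.37) and the outer peak at chr4:155991424-155991925 higher (1.80). The kinesin gene Kif4 and its neighbour Pdzd11 had the reverse pattern, at 0.24 and -2.10 (chrX:100625077-100625578). So did the diphthamide synthesis gene Dph3 with Oxnad1, at 0.43 and -1.58 (chr14:32086288-32086789), and the small heat shock protein genes Cryab and Hspb2, at 0.54 and -1.55 (chr9:50752683-50753184). The direction thus differed between neighbouring peaks at these 29 pairs.

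Listing of a peak for 1 cell type went with its difference, as both rest on the same reads. Of the 252 peaks on the MEF list only, 185 were lower in mESCs and 5 higher (median log2 difference -0.67), and of the 217 on the mESC list only, 113 were higher and 14 lower (median 0.44). The 1360 peaks on both lists had 123 higher, 579 lower and a median of -0.20. For 3 of the 10 motifs, picked after their values were seen, the shares and levels are given without a test. Peaks with an ETS match were called lower in mESCs in 27.4% of 179, against 44.2% of the 1650 without one. Those with an NRF1 match were called lower in 56.7% of 60 and higher in 3.33%, against 42.1% and 13.5% of the 1769 without. Over all peaks, with or without these letters, 41.7% were called lower and 40.0% higher. A CCAAT box went with a higher level, 38.0 CPM in 685 peaks against 20.1 in the 1144 without. Peaks with a match also lay closer to the midpoint, at medians of 69.5 against 247.75 bp (ETS), 95.0 against 224.0 bp (NRF1) and 132.0 against 272.75 bp (CCAAT). The part of this distance in the shares and levels was not tested.

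Gene lists for the functions known from bidirectional promoters were counted over calls on both platforms, so the list counts of peaks not called include those called on 1 platform alone. Many of the examples named are outer peaks, so the values of the peak nearest to the midpoint of the pair's start sites are given with them. The largest was that of the mitochondrial ribosome and respiration, with 111 peaks at 82 pairs, of which 13 were higher in mESCs, 49 lower and 49 not called (median log2 difference -0.17). Mrpl30/Mitd1, with Mrpl30 of the large mitochondrial ribosomal subunit, had log2 differences of -2.12 on BGI and -1.71 on Illumina at an outer peak (chr1:37891338-37891839), and -0.43 and -0.25 at the nearest. Surf2/Surf1, with Surf1 an assembly factor of cytochrome oxidase, had -1.32 and -1.35 at an outer peak and -0.54 and -0.60 at the nearest. Mrpl36/Ndufs6, a pair of a mitochondrial ribosomal and a complex I gene, rose by 1.57 and 1.55 at an outer peak (chr13:73327749-73328250) and by 0.64 and 0.71 at the nearest.

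Splicing had 71 peaks, with 5 higher, 35 lower and a median of -0.27. Sppl2b/Lsm7, with Lsm7 of the Lsm ring on U6 RNA, had -1.87 on BGI and -2.16 on Illumina at an outer peak, and -0.48 and -0.44 at the nearest. Sf3a1/Ccdc157, with Sf3a1 of the U2 particle, had -1.92 and -1.54 at an outer peak 991.5 bp from the midpoint, and 0.14 and 0.20, not called, at the nearest. The helicase pair Morn2/Dhx57 had -1.38 and -1.31 at an outer peak, and rose by 0.59 and 0.58 at the peak on the start sites. Mrrf/Rbm18, with Rbm18 an RNA-binding protein, had -1.06 and -0.99.

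DNA repair had 65 peaks at 49 pairs, with 5 higher, 30 lower and a median of -0.20. Pms2, of mismatch repair, and Aimp2, a scaffold of tRNA synthetases, share the peak with the largest difference, -1.96 on BGI and -1.76 on Illumina (chr5:143908816-143909317). Zfyve21/Xrcc3, with Xrcc3 of homologous recombination, had -1.78 and -1.89, Xrcc6/Desi1, with Xrcc6 the Ku70 end-binding protein, -1.34 and -1.17, and Tmem258/Fen1, with Fen1 the flap endonuclease, -1.31 and -1.0. All 4 are outer peaks, 727 to 843.5 bp from the midpoint. At the inner peaks of these pairs Tmem258/Fen1 had -0.71 and -0.60, Zfyve21/Xrcc3 -0.27 and -0.26, Pms2/Aimp2 -0.23 and -0.18, and Xrcc6/Desi1 -0.02 and -0.03, the last not called.

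DNA replication and cell cycle had 38 peaks, with 4 higher, 15 lower and a median of -0.15. The largest differences went up: Anapc15/Folr1, with a subunit of the anaphase-promoting complex and a folate receptor, rose by 3.30 on BGI and 3.24 on Illumina (chr7:101863910-101864411). Anapc10/Abce1, with another subunit of that complex and a ribosome recycling factor, rose by 3.25 and 3.28 at a peak 1113 bp from the midpoint, while the nearest peak had 0.04 and -0.02 and was not called. The phosphatase gene Cdc25b with Spef1 had -0.77 and -0.79, and Afmid/Tk1, with Tk1 thymidine kinase, had -0.79 and -0.74.

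Zinc finger proteins had 64 peaks, with 9 higher, 27 lower and a median of -0.23. Beside the outer peak of Zfp524/Fiz1, whose nearest peak had -0.16 and -0.10 and was not called, Zfp296/Gemin7 rose by 0.98 on BGI and 1.12 on Illumina at an inner peak. Outer peaks of Zfp276/Vps9d1 (-1.72 and -1.57) and Lpxn/Zfp91 (-1.59 and -1.47) were lower. Their nearest peaks had -0.13 and -0.23, not called on both platforms, and -0.36 and -0.45. The proteasome and chaperones had 48 peaks, with 5 higher, 20 lower and a median of -0.21. At outer peaks the chaperonin subunit genes Cct7 (with Pradc1, -2.15 and -2.02), Cct3 (with Tsacc, -1.12 and -0.92) and Cct5 (with Fam173b, -1.11 and -0.76) were lower, and the prefoldin pair Pfdn2/Nit1 higher (1.66 and 1.52). The nearest peaks had 0.08 and 0.08 at Cct7/Pradc1 and 0.13 and 0.02 at Cct3/Tsacc, neither called, -0.46 and -0.57 at Fam173b/Cct5, and 0.62 and 0.59 at Pfdn2/Nit1.

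Translation factors and tRNA synthetases had 44 peaks, with 4 higher, 20 lower and a median of -0.25. Map4k1/Eif3k, with a subunit of initiation factor 3, rose by 1.65 and 1.62 at an outer peak, while the nearest had -0.25 and 0.00 and was not called on both platforms. Tigd5/Eef1d was lower at an outer peak (-0.77 and -1.04) and at its nearest (-0.53 and -0.53). Mettl1/Eef1akmt3 (-0.84 and -0.90) and the peak at Alg3 (-0.81 and -0.86) were lower at inner peaks. RNA polymerase and general transcription factors had 38 peaks, with 6 higher, 11 lower and 21 not called (median -0.15). The TFIID gene pair Anks1/Taf11 was lower at an outer peak (-1.14 and -1.09) and higher at the nearest (0.59 and 0.54). The Mediator gene pair Med20/Bysl was lower at an outer peak (-1.12 and -1.03) and at the nearest (-0.30 and -0.35). Gtf3c1 of TFIIIC with D430042O09Rik was lower at an inner peak (-0.79 and -0.85). Ddx31/Gtf3c4 was higher at an outer peak (1.08 and 0.60), while the nearest had -0.12 and -0.17 and was not called.

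Histones were the list with more higher than lower calls. They had 30 peaks at 14 pairs, of which 15 were higher in mESCs, 1 lower and 14 not called, with a median log2 difference of 0.29. The 50% called higher stands beside 13.2% of all bidirectional promoter peaks and 40.0% of all peaks. The outer peaks were higher in 11 of 19 and the inner ones in 4 of 11. Beside the testis pair, Hist1h2bk/Hist1h2ah rose by 1.77 on BGI and 1.65 on Illumina and Hist1h2bc/Hist1h2ac by 1.47 and 1.11, both at outer peaks of the chromosome 13 cluster. Their nearest peaks had 0.12 and 0.22, and 0.20 and 0.24, each called higher on Illumina and not called on BGI. The only one lower was Hist1h3f/Hist1h2bh (-0.48 and -0.38). Histone genes come in similar copies, and how well reads can be placed in their promoter peaks was not measured here. The 15 ranged from 14 to 18 without 1 library.

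Cytosolic ribosomal proteins had 19 peaks, with 3 higher (15.8%), 7 lower (36.8%) and a median of -0.16. Syngr1/Rpl3 (1.29 and 1.16) and Clhc1/Rps27a (0.85 and 0.64) were higher, and Rdh10/Rpl7 (-1.08 and -0.91 at 596 bp from the midpoint, -0.43 and -0.38 at its nearest peak) and Rpl7a/Med22 (-0.58 and -0.50) lower. The extracellular matrix had 12 peaks, with 2 higher (16.7%) and 6 lower (50%; median -0.32): the metalloprotease gene Mmp11 with Chchd10 was higher (1.35 and 1.36), and the fibrillin gene Fbn1 with Gm9913 lower (-0.74 and -0.96). Germline genes had 8 peaks, with 1 higher (12.5%), the Terb2/Patl2 peak above, and 4 lower (50%), among them Zcwpw1/Mepce (-0.95 and -1.0) and Stag3/Gpc2 (-0.60 and -0.44).

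Of the pluripotency list only Fbxo15/Timm21 had a peak, and it was lower in mESCs (-0.39 on BGI and -0.38 on Illumina). Of the fibroblast list there was none. Antigen processing had 3 peaks, of which Rnf31/Psme2 was lower (-0.37 and -0.30) and the other 2, at Tap1/Psmb9 and a further Psme2 peak, were not called on both platforms. In the 8 lists of more than 30 peaks, between 7.04% and 15.8% were higher and between 28.9% and 49.3% lower, around the 13.2% and 42.5% of all bidirectional promoter peaks. Over all peaks 40.0% were higher and 41.7% lower. The list medians kept their sign under each of the 4 scalings, but with fixed library sizes the counts changed, to 320 higher and 482 lower over all bidirectional promoter peaks. Of all peaks, 43.5% were higher and 38.8% lower on BGI alone with these sizes, and 43.5% and 39.5% on Illumina alone. By list there were then 21 higher and 26 lower in mitochondrial genes, 6 and 17 in splicing, 9 and 17 in DNA repair, 4 and 7 in replication, and 13 and 18 in zinc fingers. The proteasome list had 6 and 10, translation 6 and 8, RNA polymerase 6 and 7, ribosomal proteins 3 and 3, matrix genes 2 and 4, germline genes 1 and 3, and histones 19 and 1.

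**Figure D4:**
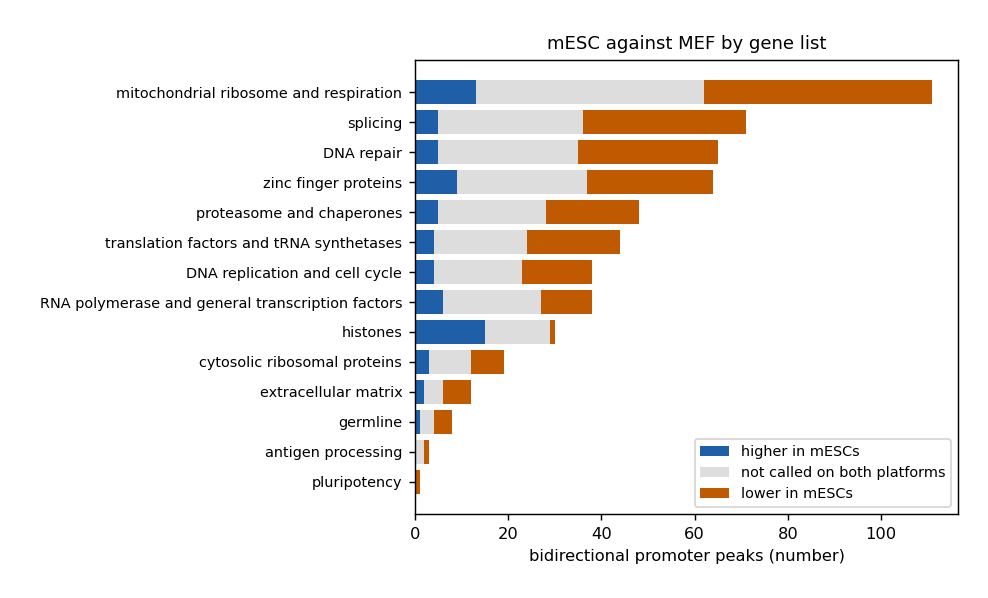
Number of bidirectional promoter peaks (horizontal axis) of 14 gene lists that were called higher in mESCs on both platforms (blue), lower (orange) or neither (grey). Lower calls outnumber higher ones in the lists drawn except histones, where 15 of 30 are higher, and antigen processing and pluripotency hold few peaks; with fixed library sizes ribosomal proteins have 3 and 3.

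The platform changed the count at many bidirectional promoters, downward on BGI. Without the pairing of libraries, 313 of 1825 tested peaks differed between BGI and Illumina in MEFs (17.2%), 4 higher on BGI (all peaks 0.0391%) and 309 lower (3.95%). In mESCs 122 of 1829 differed (6.67%), 0 higher (0.0216%) and 122 lower (2.03%), by edgeR's quasi-likelihood test with Benjamini-Hochberg adjustment. The counts at an unadjusted p below 0.05 were 802 and 557, where over all peaks they were 10766 of 87043 and 8674 of 83518. Leaving out 1 library changed these counts. In MEFs 0 were called after removal of MEF 1 or of MEF 2 and 487 after removal of MEF 4, and in mESCs 0 were called after removal of mESC 1 or of mESC 5.

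Since the same physical libraries were sequenced on both platforms, the library number was also fitted as a replicate block. With the block 977 of 1828 differed in MEFs, 52 higher (all peaks 4.93%) and 925 lower (12.9%), and 844 of 1829 in mESCs, 32 higher (3.47%) and 812 lower (12.1%). DESeq2 with the same block, a fit chosen after seeing the data, called 557 and 367. The share of all peaks called in that fit is not given here, so these counts have no background. At other protein-coding promoters 44.7% and 39.0% differed with the block, against 53.4% and 46.1% of bidirectional ones. In this fit the median log2 difference of BGI over Illumina was -0.18 in MEFs and -0.16 in mESCs, against -0.17 and -0.14 at other protein-coding promoters and 0.03 and 0.02 over all peaks. Without the block 13.9% and 6.84% of other promoters were called. Within each of the 6 libraries between 66.9% and 71.5% of bidirectional promoters were lower on BGI.

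The difference went with base composition. In 5 classes of bidirectional promoters by GC content the median log2 difference in MEFs went from -0.06 in the lowest (33.3% to 54.8% GC) through -0.08, -0.14 and -0.23 to -0.40 in the highest (67.3% to 82.5%). In mESCs it went from -0.04 through -0.07, -0.11 and -0.19 to -0.36. In the highest class 92.2% were lower on BGI in MEFs with the block and 91.9% in mESCs, against 16.9% and 13.0% in the lowest. Of the peaks of the highest class at other promoters 90.0% and 87.5% were lower, with medians of -0.43 and -0.38, and of those away from promoters 75.2% and 79.8%. The kinds of peak lay further apart in the lowest class. There 7.15% and 4.53% of other promoters were lower, with medians of 0.003 and 0.007. Away from promoters it was 0.507% and 0.627%, with medians of 0.10 and 0.09. Across peaks the Spearman correlation of GC content with the difference was -0.54 in either cell type over 1825 and 1829 peaks (-0.47 in either over all peaks with a GC value), and -0.42 to -0.58 within single libraries. The peaks share their libraries, and the values describe these samples.

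**Figure D5:**
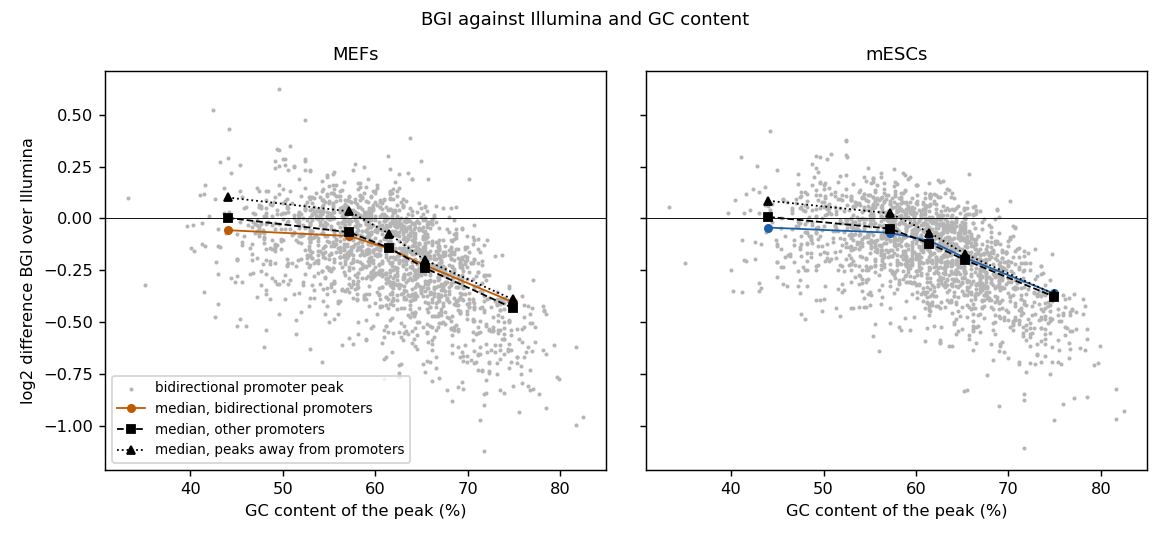
Log2 difference of BGI over Illumina (vertical axis) against GC content of the peak in percent (horizontal axis) in MEFs (left) and mESCs (right), with each bidirectional promoter peak as a grey point. Lines join medians in 5 GC ranges, drawn at the middle of each range, for bidirectional promoters, other promoters and peaks away from promoters, and all fall with GC content, to -0.40 and -0.36 in bidirectional promoters.

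With GC content fitted as an offset beside the block, 546 bidirectional promoters differed in MEFs, 246 higher on BGI (all peaks 3.81%) and 300 lower (4.06%), and 381 in mESCs, 192 higher (2.72%) and 189 lower (2.78%). The medians were then -0.03 and -0.02. The offset removes the trend with GC content by construction.

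The largest platform difference was at Cggbp1/Zfp654, with Cggbp1 a CGG-repeat binding protein, at a peak of 71.7% GC in an intron of Cggbp1 (chr16:64852424-64852925). MEF 1, 2 and 4 read 4.85, 4.82 and 7.17 CPM on BGI and 10.9, 11.4 and 12.8 on Illumina, and mESC 1, 3 and 5 read 6.12, 7.75 and 7.33 against 13.3, 16.3 and 14.5. Every library was lower on BGI, and the log2 differences were -1.12 (SE 0.18, edgeR adjusted p = 0.00849) in MEFs and -1.11 (SE 0.15, adjusted p = 0.00435) in mESCs. With the block the adjusted p-values were 3.92e-16 and 1.33e-19.

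Pced1b/Amigo2, with Amigo2 a neuronal adhesion protein, had a peak of 81.7% GC (chr15:97247095-97247596) that was lower on BGI, at -1.0 (SE 0.18, edgeR adjusted p = 0.0142) in MEFs and -0.97 (SE 0.15, adjusted p = 0.00770) in mESCs. Afdn/Tcte2, with Afdn the junction protein afadin, had 74.9% GC (chr17:13760038-13760539), and read 13.1, 15.1 and 12 CPM in mESCs on BGI and 26.1, 28.3 and 21.8 on Illumina (-0.97, SE 0.13, adjusted p = 0.00463). In MEFs the third was Fbxo36/Trip12, with 2 genes of the ubiquitin system and 71.3% GC (chr1:84838674-84839175), at -0.97 (SE 0.16, adjusted p = 0.00922). It read 8.26, 6.01 and 7.52 CPM on BGI and 12.3, 14.7 and 14.1 on Illumina.

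Without the block 4 bidirectional promoters were called higher on BGI in MEFs, Fam72a/Srgap2 among them (0.18, edgeR adjusted p = 0.0263). Of the peaks called higher on BGI with the block, the 3 with the largest difference in each cell type did not pass without it. In MEFs these were Mrpl30/Mitd1 (0.52, edgeR adjusted p = 0.0101 with the block and 0.338 without), Wfdc10/Wfdc9 (0.48, 0.00207 and 0.308) and Neu2/Ngef (0.35, 0.0388 and 0.448). In mESCs they were Cd274/Plgrkt, with Cd274 the immune checkpoint ligand PD-L1 (0.37, 0.0275 and 0.718), Wfdc10/Wfdc9 (0.37, 0.00266 and 0.311) and Cryab/Hspb2 (0.30, 0.0380 and 0.621). Their GC contents lay between 42.4% and 52.4%, below the median of 61.6%.

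Whether the platform difference itself differed between the cell types was tested as an interaction over all 12 samples. By edgeR's quasi-likelihood test without the block 0 bidirectional promoters passed (all peaks 0.0%), and 73 had an unadjusted p of less than 0.05 (2386 of all 91354 peaks). With the block 29 passed (all peaks 0.386%), and 577 reached an unadjusted p below 0.05 (12094 of all 91354). In this fit the median over all peaks was 0.11 and that of bidirectional promoters 0.13.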

How the data were processed

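Omni-ATAC-seq libraries of 3 MEF and 3 mESC samples were each sequenced on 2 platforms. The authors cut the 150 bp Illumina reads to 100 bp, trimmed with Cutadapt, aligned with Bowtie2 to GRCm38 (mm10), removed duplicates with Picard and poorly placed and mitochondrial reads with Samtools, and down-sampled to 60 (MEF) or 45 (mESC) times 1000000 reads. They called peaks per sample with MACS2, widened each summit by 250 bp on either side (502 bp in the deposited tables) and, for the list of each cell type and platform, required 2 samples with a normalized peak score of 3 or more.

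The deposited tables hold whole-number read counts of each sample in each peak, without normalization. Per the file headers and labels, columns that name BGI are BGI, and those without a platform were taken as Illumina. This was checked on the peak calls (Spearman rho 0.764 to 0.827 between platform ratios of counts and of summit enrichment within a library). From the deposited peak calls the summit position and the fold enrichment, a ratio over background, were used. The -log10 p-values deposited by the authors were read, but no result rests on them. The deposited lists of reproducible peaks give positions. The count table on the Illumina peak set served only as an alternative, and tables on peak sets of 1 cell type were not used.

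Here, TSSs of protein-coding transcripts (54457 TSSs of 21943 genes) within 1000 bp of the peak interval defined the regions. Counts were fitted with edgeR 4.0.16 (quasi-likelihood test, TMM, filterByExpr, Benjamini-Hochberg over all tested peaks, threshold 0.05), with DESeq2 1.42.0 as an alternative. No read-based filter removed a bidirectional promoter peak from the cell type tests, and 4 were removed from the unpaired MEF platform test. CPM is reads per 1000000 reads in peaks of a sample, while log2 differences carry the TMM scaling. GC content and sequences came from GRCm38, and motif letters were searched in 300 bases about the peak centre. Fits were tested on simulated counts. 69 of the 91354 peaks lay on scaffolds and had no sequence.

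Named pairs were the 8 largest differences in each direction among peaks called on both platforms without overlap of samples, the 4 highest levels, the 3 smallest differences in the upper quartile by level, the 3 largest platform differences in each direction and cell type with the replicate block, and up to 4 peaks of each gene list, with 1 peak per pair. Pairs and values chosen otherwise, such as the opposite-direction pairs and a few list members shown beside these, were picked after their values were seen, and a few pairs that the rule names are not reported here. The gene lists were 15 (mitochondria, splicing, DNA repair, replication and cell cycle, zinc fingers, proteasome and chaperones, translation, RNA polymerase, histones, ribosomal proteins, matrix, germline, antigen processing, pluripotency, fibroblast). Regions, lists and tests were chosen with earlier results of these data known.

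Library numbers pair the platforms because the 6 libraries were each sequenced on both. Deviations from group means correlated at 0.449 to 0.680 (MEF) and 0.426 to 0.618 (mESC) between samples of the same number, and at -0.489 to 0.0694 between different numbers. Between cell types the numbers share no source, so no block was used there.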

Additional observations from a re-analysis of the deposited data

Results flagged for a closer look

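At 29 bidirectional promoters the difference between BGI and Illumina itself differed between mESCs and MEFs, by an interaction term in edgeR's quasi-likelihood test with the library as a replicate block (Benjamini-Hochberg adjusted p under 0.05), against 0 without the block. They were 1.59% of bidirectional promoters, beside 1.15% of other promoters and 0.386% of all peaks. All 29 had a higher value in mESCs, between 0.19 and 0.68 on the log2 scale, as had 243 of 243 called at other promoters and 346 of 353 over all peaks, and the median over all bidirectional promoters in this fit was 0.13 and over all peaks 0.11. Their GC content ran from 51.8% to 74.7% with a median of 65.9%, and 25 of them were called different between the platforms in MEFs. The largest was the GC-rich Fbxo36/Trip12 peak, at 0.68 (SE 0.14, adjusted p = 0.0174). Fitted within each cell type, with scaling factors of its own, BGI against Illumina was -0.98 in MEFs and -0.40 in mESCs, which differ by less than the interaction. Others were Plpp6/4430402I18Rik (0.57), Jmjd1c/Reep3 (0.43), with Jmjd1c a histone demethylase family member, and the chaperonin pair Hspe1/Hspd1 (0.27).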

How the results depend on the processing

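The number of bidirectional promoters differing between the cell types stayed within 1.5 times of the reported one under DESeq2, the other scalings, the filters on low counts, the Illumina peak set and without any 1 library (943 to 1099 on BGI, 1042 to 1221 on Illumina, medians -0.21 to -0.17 and -0.25 to -0.18). With a log2 difference of at least 1 required, it was 187 and 168. Fixed library sizes moved the medians to -0.058 and -0.087. A TSS window of 2 kb gave 63.2% called on BGI. No paired analysis was possible for the cell types because they share only 1 library number and no source. For the platform, the library as a replicate block gave 977 (MEF) and 844 (mESC), the block with a GC offset 546 and 381 with medians of -0.030 and -0.021, and DESeq2 with the block, chosen after seeing the data, 557 and 367. RLE size factors gave a median of -0.14 in mESCs. Leaving out 1 library gave 0 to 487 (MEF, medians -0.19 to -0.17) and 0 to 103 (mESC, -0.16 to -0.15), and with the block 763 to 903 in MEFs (821 without MEF 2) and 626 to 711 in mESCs (702 without mESC 5), with medians of -0.19 to -0.17 and -0.16 to -0.15. Histone peaks called higher ranged from 14 to 18, and the ratio of outer to inner differences from 1.46 to 1.63. The interaction gave 29 with the replicate block in place of 0. The causes of these changes were not tested.

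Among named pairs, the 16 with the largest cell type differences kept call and direction in each alternative run. The 4 most accessible pairs were uncalled with fixed library sizes, and the platform calls at Cggbp1/Zfp654, Pced1b/Amigo2, Fbxo36/Trip12 and Afdn/Tcte2 were lost without MEF 1 or 2, or mESC 1 or 5. Signs turned at 4 pairs. Lrch4/Fbxo24 (-0.10 on Illumina) was 0.024 with fixed library sizes. Cep290/Tmtc3 on BGI was -0.037 in the Illumina peak set, and after removal of 1 library -0.047 to 0.064 on BGI and -0.072 to 0.063 on Illumina. Ap4m1/Mcm7 was -0.031 on BGI in the Illumina peak set, and on Illumina 0.0251 with DESeq2, 0.025 with RLE factors, 0.12 with fixed sizes and 0.041 with the minimum mean count of 50. Removal of 1 library gave -0.066 to 0.084 on BGI and -0.063 to 0.057 on Illumina. Mgat2/Rpl36al on BGI was 0.033 with DESeq2 and with RLE factors, 0.14 with fixed sizes and 0.022 with the count minimum, and after removal of 1 library -0.12 to 0.087 on BGI and -0.078 to 0.059 on Illumina. Low MEF levels at the mESC-high pairs rest on few reads.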
